A study of Mus musculus with 6 samples.

Results

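30 genes that mark the tissues next to the cortex were followed through an RNA sequencing study of mouse anterior cingulate cortex, which lies along the midline of the frontal brain. They were taken by symbol from the deposited count table, and all 30 were found among its 45777 rows. 13 mark the fibroblasts of the meninges, the membranes around the brain. 9 mark the choroid plexus, the tissue inside the ventricles that makes cerebrospinal fluid, and 8 mark the ependyma, the ciliated lining of the ventricles. The study compared BALB/c mice, an inbred strain, in 2 groups of 3 libraries. The non-stress group (NS) had no stress, and the stress group (smSDS) received social defeat stress for 5 days, meaning defeat by a dominant mouse. The labels give no age, and no genetic change is named for either group. Whether a library is 1 animal or a pool is not stated, so the tests measure the spread between libraries, which may be technical.

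Meningeal fibroblasts lay down collagens and small proteoglycans that order collagen fibres, and they bind growth factors and make retinoic acid. Choroid plexus epithelium secretes transthyretin and moves ions, folate and hormones between blood and cerebrospinal fluid. Ependymal cells carry many motile cilia that move the fluid. The programme that forms these cilia in precursor cells is driven by the coregulator Mcidas and the transcription factor Foxj1, with RFX factors binding the promoters of many cilium genes. The dissected cortex borders on meninges and lies near the ventricles, so RNA of these genes can come from neighbouring tissue as well as from cells within the piece. In bulk tissue, fewer cells of a type and less RNA per cell cannot be told apart.

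Totals ranged from 41623899 to 47212982 counts per library. On principal component 1 of log2 CPM (counts per 1000000 counts of the library), which held 34.5% of the variance, non-stress 2 and 3 lay at 37.5 and 27.4 and the other 4 libraries between -20.5 and -11.8. The labels name no batch that would separate them. A list of 10 neuron markers summed to 9630 to 9960 CPM per library, with 66.1% of it from Snap25, a gene of all neurons, so the sum shows neurons and not the region. The ependymal genes together summed to 11.0 to 15.9 CPM and the choroid plexus genes to 6.06 to 15.2 CPM. Otx2 and Aqp1, both choroid plexus genes, were too low to be tested. Otx2, a transcription factor of choroid plexus development, had 7, 9 and 3 counts in non-stress 1, 2 and 3, then 0, 10 and 5 in the stress libraries in the same order, which is used throughout. Aqp1, the water channel of the epithelium, had 2, 0 and 0 counts and then 0, 0 and 3. The other 28 members passed the filter on low counts.

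Promoter stretches are shown for the ependymal genes that hold a short core of the motif bound by RFX factors, since this group contains the largest difference between the groups. RefSeq's promoter table (GRCm38.p6) held 19 of the 30 members, 5 of them ependymal. The 250 bases before each start were searched on both strands for GTTGCC, which can also form the start of the longer RFX motif. It was present in a promoter of 4 of the 5 ependymal genes, of 2 of 5 choroid plexus genes and of 0 of 9 meningeal genes. Some genes have several promoters. By promoter it was present in 4 of 5 ependymal, 3 of 10 choroid plexus and 0 of 15 meningeal ones, against 10.4% of 32851 promoters. Each stretch below is 30 bases on the gene's own strand, with GTTGCC in capitals.
Mcidas: gggggaagccagGTTGCCaggttggttaac
Ccdc153: ctgagttttccaGTTGCCtggacaacgtgc
Dynlrb2: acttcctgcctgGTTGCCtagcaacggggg
Enkur: gataaaagccagGTTGCCccgtctcctagc
They lie at chr13:112993661-112993690 (plus strand), chr9:44240513-44240542 (plus), chr8:116504952-116504981 (plus) and chr2:21205382-21205411 (minus). GTTGCC began 195, 152, 51 and 34 bases before the start in the table, in the same order. For Mcidas that start lies downstream of the outer start of the gene, so the stretch is inside the annotated gene. Tmem212, the fifth ependymal gene in the table, held no match. The longer RFX palindrome, the X-box, was searched with a fixed spacer of 2 bases and no mismatch, and that strict form was found in no member's promoter and in 0.374% of all. Other spacings and other letters of the X-box were not searched. A forkhead motif, TGTTTAC, was found in 1 of 10 choroid plexus promoters (3.17% of all promoters). TAATCC, the core bound by Otx2, was found in 1 of 10 choroid plexus and 1 of 15 meningeal promoters (6.25% of all). These matches describe letters and are not evidence of binding.

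The first question was whether any member differed between stress and non-stress by more than the libraries of 1 group differed among themselves. Across the 28 members, calls and separated groups were about as frequent as in genes at large. The median difference and the median spread within groups were both larger, without matching for counts. By edgeR's quasi-likelihood test with Benjamini-Hochberg adjustment over 19227 genes, 0 of the 28 passed an adjusted p of 0.05, where 0.00520% of all genes passed. At an unadjusted p under 0.05 there were 5 members (17.9%), against 12.1% of all genes. Of the 5, 2 were higher in stress (Sostdc1 and Igfbp2; background 5.80%) and 3 lower (Mcidas, Ccdc153 and Tmem212; background 6.27%). The 3 stress libraries lay wholly above or below the 3 non-stress libraries in 5 members, also 17.9%, and this was 17.9% of all genes as well. 4 of these lay lower in stress (Mcidas, Ccdc153, Tmem212 and Islr; background 9.43%) and 1 higher (Igfbp2; background 8.43%). 14 fold changes were above 0 and 14 below (49.8% of all genes were above), with a median of -0.02 on the log2 scale, against -0.00053 for all genes. DESeq2 and limma-voom also called 0 members, with 4 and 5 at an unadjusted p under 0.05. DESeq2's filter on mean counts left only 4 members with an adjusted p, and without that filter it called Mcidas.

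The spread within groups was large for most of these genes. The within-group standard deviation of log2 CPM, pooled over both groups, had a median of 0.37 over the 28 members, against 0.123 over all genes tested. It was above the median of all genes in 25 members and above their 90th percentile, 0.44, in 12. The absolute difference of the group means of log2 CPM had a median of 0.217, against 0.103 over all genes. It exceeded that SD in 15 members, as it did in 42.8% of all genes, and exceeded 2 SD in 3 members (Mcidas, Igfbp2 and Islr), as in 12.5% of all genes. In 11 members the coefficient of variation within groups was over 2 times that of independent counts at the same mean. Ttr stood highest, at 7.22 times. The share of all genes past this cut was not computed, so whether 11 of 28 is unusual is not known.

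**Figure D1:**
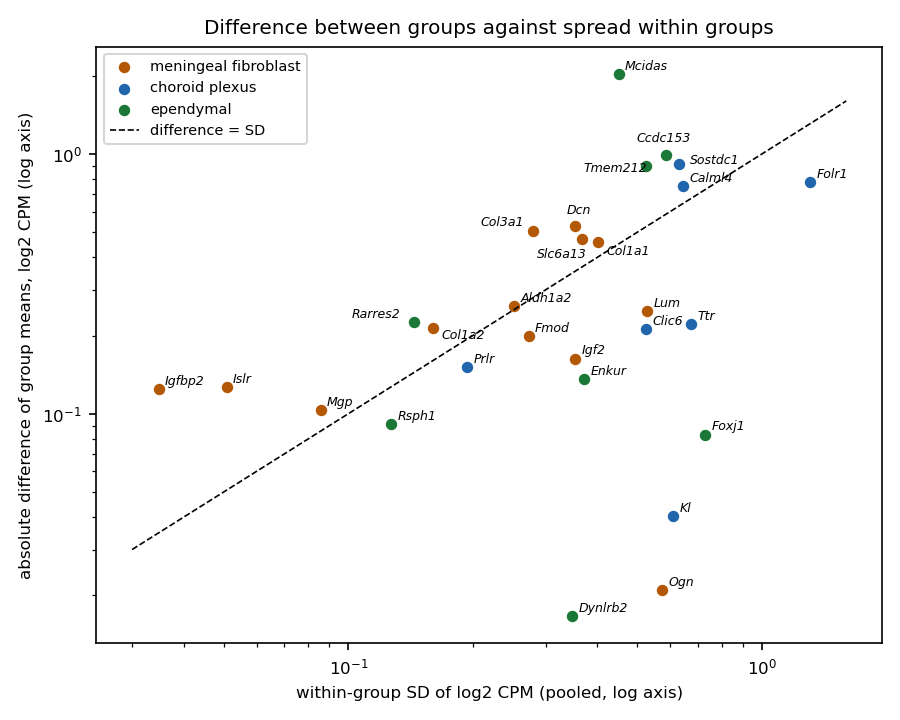
Absolute difference between group means of log2 CPM (y, log axis) against the pooled within-group SD of log2 CPM (x, log axis) for the 28 tested genes, coloured by tissue. The dashed line marks a difference equal to 1 SD: 15 genes lie above it, with Mcidas farthest above at 4.50 SD, and Ogn, Dynlrb2, Kl and Foxj1 lie far below.

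The ependymal group held the member with the smallest p-value, Mcidas (chr13:112993581-113000394, GRCm38), a nuclear coregulator that drives precursor cells to form many cilia. Its counts were 42, 31 and 51 without stress, against 6, 13 and 7 in stress. Every non-stress library stood above every stress library. The mean was 0.949 ± 0.280 CPM without stress and 0.200 ± 0.0863 CPM with it (SD, n = 3), a 4.75-fold lower level. The log2 fold change was -2.22 (SE 0.38), with edgeR's adjusted p = 0.190, so it did not pass over all genes. With each library left out in turn the log2 fold change stayed between -2.63 and -2.01. EdgeR's adjusted p ranged from 0.0241 without non-stress 1 to 0.732 without stress 1. The fit without non-stress 1 called 756 of 19616 genes, against 1 with all libraries, so that lower value is not particular to Mcidas. DESeq2's Wald test gave an unadjusted p = 1.44e-05, and an adjusted p = 0.00793 when its filter on mean counts was switched off, an alternative chosen after seeing the data.

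Mcidas sits beside other genes of multiciliation on chromosome 13, and these are given for comparison. Ccno, a cyclin-like gene needed for centriole amplification, ends 2803 bases before it. It had 41, 66 and 67 counts in non-stress and 57, 42 and 86 in stress, so its groups overlapped. Cdc20b, farther along, had 0, 0 and 0 counts and then 1, 2 and 0. No GENCODE exon of another gene overlaps those of Mcidas.

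Ccdc153 and Tmem212, genes of ciliated cells, also lay lower in every stress library than in any non-stress library. Ccdc153 (chr9:44240677-44247306) had 69, 57 and 59 counts in non-stress and 39, 42 and 15 in stress. Its mean was 1.40 ± 0.197 CPM against 0.746 ± 0.357 CPM (SD, n = 3), with a log2 fold change of -0.91 (SE 0.34, edgeR adjusted p = 0.375). Tmem212 (chr3:27866065-27896391) had 32, 51 and 38 counts and then 27, 26 and 11, with a log2 fold change of -0.88 (SE 0.35, edgeR adjusted p = 0.388). In both genes stress 3 was the lowest library. Without stress 3 the log2 fold change was -0.56 for Ccdc153 and -0.55 for Tmem212.

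The remaining ependymal members overlapped between the groups. Foxj1, the transcription factor that switches on the genes of motile cilia, had 31, 40 and 9 counts in non-stress and 25, 23 and 16 in stress. Non-stress 3 was its lowest library and non-stress 2 its highest, so the whole range of the 6 libraries lay within 1 group. Its log2 fold change was -0.27 (SE 0.46), or -0.67 without non-stress 3 and 0.08 without non-stress 2. Enkur, a protein of ciliary and sperm axonemes, had 194, 117 and 96 counts and then 138, 139 and 144. The stress libraries were alike, while non-stress 1 lay above them and non-stress 2 and 3 below. Rsph1, a radial spoke head component, had 186, 172 and 173 counts and then 169, 168 and 153. Dynlrb2, a dynein light chain, had 32, 41 and 44 counts and then 35, 54 and 30. Rarres2, which encodes the secreted chemerin, had 99, 113 and 83 counts and then 120, 102 and 116. Of the exon bases of Rarres2, 33.6% overlap Lrrc61 on the opposite strand, and the use of strand in counting is not stated. These 4 genes had log2 fold changes of 0.07 (Enkur), -0.09 (Rsph1), 0.05 (Dynlrb2) and 0.23 (Rarres2).

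**Figure D2:**
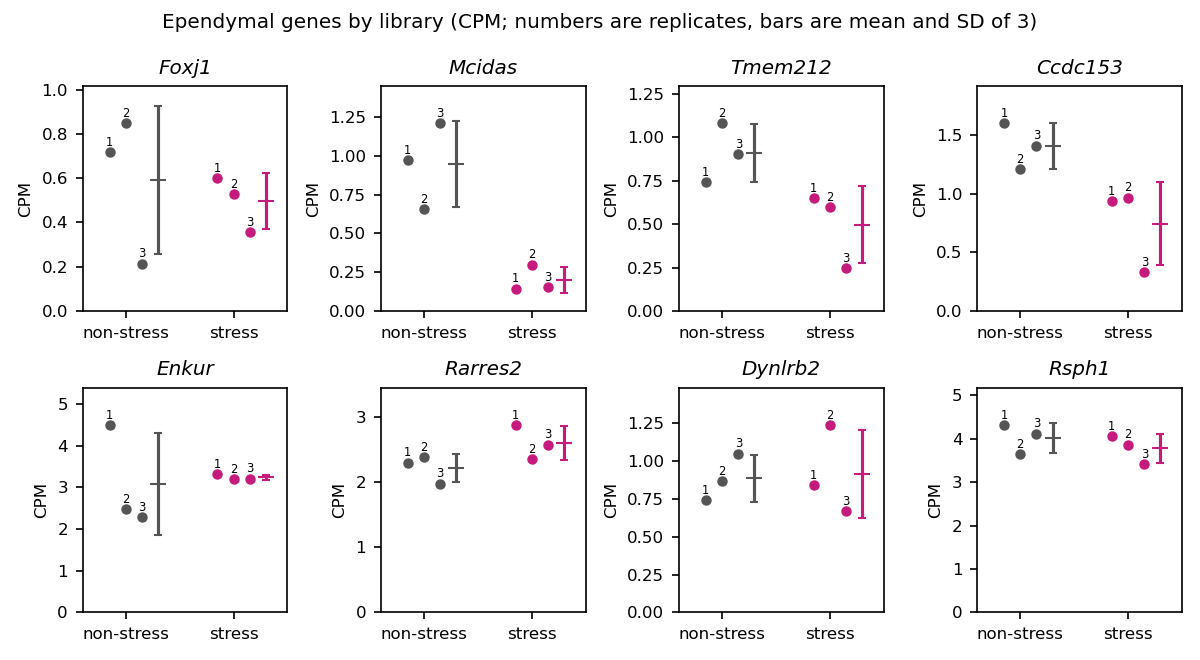
CPM of the 8 ependymal genes (y) in the non-stress and stress libraries (x). Points are libraries numbered by replicate, and bars are the mean and SD of 3; the groups are separate in Mcidas, Tmem212 and Ccdc153 and overlap in the other 5 genes.

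Over the 8 ependymal members the median log2 fold change was -0.18, with 5 below 0. By library, the median of the members' deviations from their own means was 0.337, 0.146 and 0.159 for the non-stress libraries. For stress 1, 2 and 3 it was 0.033, -0.011 and -0.411. Stress 3 was the lowest of the 6 libraries in 4 of the 8 members, against 12.7% of all genes tested. Among 75 other motile cilium genes tested it was the lowest in 15. Without stress 3 the median log2 fold change of the 8 members was -0.051. Without non-stress 3 it was -0.384.

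Other genes of the motile cilium that could be tested, from a list that leaves out the members, centred near 0. Of that list 86 genes had a row, and those too low to be tested have no part in these values. It includes genes of higher level, such as Tppp3 at 42.1 CPM in the non-stress mean, where the 8 ependymal members summed to 14.1 CPM. From which cells their RNA came was not tested. Of 75 tested, 0 passed edgeR's threshold, 1 was higher and 5 were lower at an unadjusted p under 0.05 (6 of 75, against 12.1% of all genes), and the median log2 fold change was -0.03. Sntn, a protein of the tips of motile cilia, had 13, 17 and 13 counts in non-stress and 6, 4 and 0 in stress. Its log2 fold change was -2.03 (SE 0.66, edgeR adjusted p = 0.351), and its groups did not overlap. Dnah12, an axonemal dynein heavy chain, had 12, 14 and 24 counts and then 8, 7 and 5, a log2 fold change of -1.28 (edgeR adjusted p = 0.359). Cfap126, a protein of basal bodies, had 20, 36 and 41 counts and then 23, 13 and 9, with overlapping groups and a log2 fold change of -1.07. These 3 genes have low counts. The 1 gene higher at that p was Rsph9, a radial spoke gene named after its values were seen, with 879, 828 and 748 counts and then 888, 864 and 994, a log2 fold change of 0.19.

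Among 14 tested regulators of multiciliation, 0 passed and 1 was lower at an unadjusted p under 0.05, as were 6.27% of all genes. The median log2 fold change was -0.06. Gmnn, which encodes geminin, the replication inhibitor that binds Mcidas protein, had 307, 332 and 304 counts in non-stress and 259, 252 and 281 in stress. Its groups did not overlap, where 9.43% of all genes lay lower in stress without overlap. Its log2 fold change was -0.23 (SE 0.09, edgeR adjusted p = 0.395). E2f4 and Rfx2, transcription factors of the programme, had log2 fold changes of -0.20 and -0.48. Gmnc, which acts upstream of Mcidas and was also named after its values were seen, had 21, 23 and 11 counts and then 13, 22 and 37, with overlapping groups.

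In 5 of the 7 tested choroid plexus members the difference between the groups was smaller than the within-group SD, and in Sostdc1 and Calml4 it was 1.45 and 1.17 SD. Ttr, the thyroxine carrier transthyretin and the most abundant secreted product of the epithelium, had 469, 325 and 319 counts in non-stress and 403, 462 and 156 in stress. Stress 3 was the lowest library, at 3.48 CPM, and non-stress 1 the highest, at 10.9 CPM, a 3.13-fold range. The group means were 8.45 ± 2.13 and 7.93 ± 3.89 CPM (SD, n = 3), and the difference was 0.328 of the within-group SD. The log2 fold change was -0.09 (SE 0.34), or 0.27 without stress 3 and 0.13 without non-stress 1.

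Stress 3 was also the lowest library in Folr1, Clic6 and Calml4. Folr1, the folate receptor that carries folate into cerebrospinal fluid, had 12, 15 and 10 counts in non-stress and 9, 22 and 0 in stress. The 0 in stress 3 allows up to 3 counts, or 0.0668 CPM, if counts are independent. Clic6, an intracellular chloride channel family gene, had 42, 25 and 28 counts and then 36, 30 and 16. Calml4, a calmodulin-like gene, had 16, 8 and 27 counts and then 11, 7 and 7, and its log2 fold change of -1.0 (SE 0.52, edgeR adjusted p = 0.469) became -0.47 without non-stress 3. Stress 3 was the lowest library in 4 of the 7 tested members (Ttr, Folr1, Clic6 and Calml4), against 12.7% of all genes, though in Calml4 stress 2 was nearly as low (0.161 against 0.156 CPM). Among 26 other choroid plexus genes tested it was the lowest in 3. Non-stress 1 was the highest in 4 of 7 (Ttr, Kl, Clic6 and Prlr), against 16.8%.

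Sostdc1 (chr12:36314169-36318452), a secreted antagonist of BMP and Wnt signals, had the largest positive log2 fold change of the members, and it depended most on stress 1. It had 32, 33 and 30 counts in non-stress, a narrow range, and 110, 60 and 33 in stress. Stress 3 lay within the non-stress values in CPM (0.735, against 0.699 to 0.742), so the groups overlapped. The means were 0.719 ± 0.0220 and 1.59 ± 0.970 CPM (SD, n = 3), with a log2 fold change of 1.14 (SE 0.41, edgeR adjusted p = 0.363). Without stress 1 it was 0.55.

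Kl and Prlr completed the tested genes of this tissue. Kl, which encodes the FGF23 coreceptor klotho, had 42, 17 and 17 counts in non-stress and 17, 33 and 19 in stress. Its highest library, non-stress 1, stood over 2 times the other non-stress libraries, and its log2 fold change of -0.12 became 0.47 without it. Prlr, the prolactin receptor, had 33, 28 and 23 counts and then 26, 33 and 33, a log2 fold change of 0.15. The median log2 fold change over the 7 members was -0.12, with 5 below 0. It was 0.128 without non-stress 1 and 0.125 without stress 3, so the sign depended on either library.

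**Figure D3:**
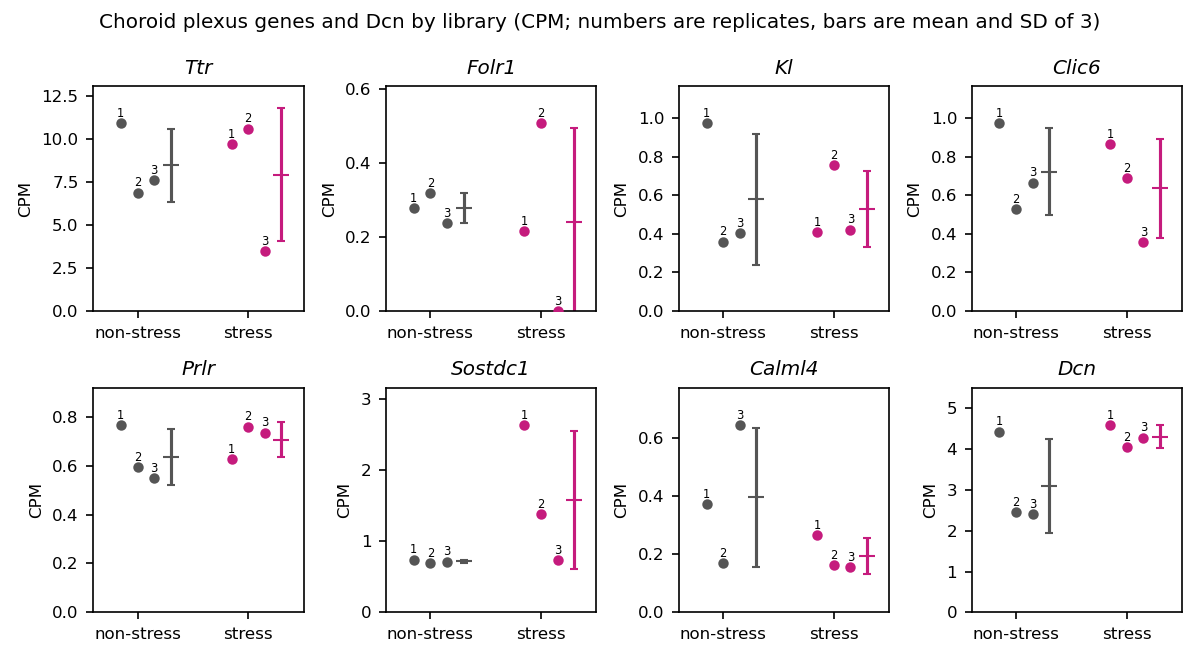
CPM of the 7 tested choroid plexus genes and of the meningeal gene Dcn (y) in the non-stress and stress libraries (x). Points are libraries numbered by replicate, and bars are the mean and SD of 3; stress 3 is lowest in Ttr, Folr1, Clic6 and Calml4, and Dcn is low in non-stress 2 and 3 only.

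Of 26 other choroid plexus genes tested, 0 passed edgeR's threshold, with 2 higher and 3 lower at an unadjusted p under 0.05 (19.2%) and a median log2 fold change of 0.07. Those with the smallest p-values are not restricted to this epithelium. Car12, a carbonic anhydrase, had 377, 464 and 393 counts in non-stress and 471, 542 and 521 in stress (log2 fold change 0.34, edgeR adjusted p = 0.344). Msx1, a homeobox gene, had 125, 143 and 130 counts and then 81, 102 and 82 (-0.56), and Steap1, a metalloreductase family gene, had 10, 6 and 9 and then 21, 24 and 15 (1.27). The groups did not overlap in these 3 genes. Also, chosen after their values were seen, Kcnj13, a potassium channel of the epithelium, had 32, 25 and 10 counts and then 28, 20 and 26, and Lmx1a, a transcription factor of its origin, had 0 in every library.

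The meningeal members fell into steady, better counted genes and variable, lower ones. Igfbp2, an insulin-like growth factor binding protein, had 1458, 1551 and 1368 counts in non-stress and 1466, 1616 and 1606 in stress. Scaled to the totals, its stress libraries (35.2 to 37.2 CPM) all stood above its non-stress libraries (32.6 to 33.8 CPM). The difference was small, with means of 33.1 ± 0.651 and 36.1 ± 1.02 CPM (SD, n = 3), a log2 fold change of 0.13 (SE 0.05) and edgeR's adjusted p = 0.396. Islr, a leucine-rich repeat protein of mesenchymal cells, stood at 15.4 ± 0.568 and 14.1 ± 0.482 CPM (SD, n = 3), with no overlap and a log2 fold change of -0.13 (SE 0.07). Mgp, the matrix Gla protein that inhibits calcification, had 224, 248 and 248 counts and then 236, 268 and 257, and its groups overlapped. Per kilobase of merged GENCODE exons, Igfbp2 stood at 17.9, Ttr at 7.13, Islr at 5.72 and Mgp at 4.59 CPM in the non-stress mean, the highest levels among the members. No other tested member reached 3 on this scale.

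Among the fibrillar collagens, the main structural proteins of the meninges, no common direction was seen. Col1a1 had 16, 14 and 10 counts in non-stress and 6, 14 and 8 in stress. Its log2 fold change was -0.48 (SE 0.43). Its partner chain Col1a2 had 142, 118 and 110 counts and then 97, 100 and 115, a log2 fold change of -0.22 (SE 0.16). Col3a1 had 14, 19 and 15 counts and then 16, 28 and 27, a log2 fold change of 0.59 (SE 0.32). The groups overlapped in all 3 collagens, and edgeR's adjusted p lay between 0.480 and 0.670.

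Dcn and Slc6a13 shared a pattern in which non-stress 2 and 3 stood apart. Dcn (chr10:97479500-97518163), the proteoglycan decorin, had 191, 116 and 101 counts in non-stress and 191, 176 and 192 in stress. Non-stress 1 lay among the stress libraries, and the other 2 non-stress libraries lay below all of them. With all libraries the log2 fold change was 0.48 (SE 0.22, edgeR adjusted p = 0.430). Without non-stress 1 it was 0.82 with edgeR's adjusted p = 0.0106, in a fit that called 756 of 19616 genes. Without non-stress 2 or 3 it was 0.34 or 0.33. Slc6a13, a GABA and taurine transporter of the meninges, had 117, 77 and 56 counts and then 107, 104 and 117, a log2 fold change of 0.42 (SE 0.24), or 0.76 without non-stress 1 (edgeR adjusted p = 0.0506).

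A wider form, with non-stress 2 and 3 as the 2 lowest libraries by any margin, was counted over all lists. It held in 7 of the 28 members (25.0%), namely Dcn, Slc6a13, Igfbp2, Sostdc1, Prlr, Kl and Enkur, against 14.9% of all genes tested. The margin was small in some. In Igfbp2 non-stress 1 stood at 33.8 CPM, against 32.9 and 32.6 in non-stress 2 and 3. In Sostdc1 stress 3 stood at 0.735 CPM, against 0.699 and 0.715. In Kl stress 1 stood at 0.408 CPM, against 0.360 and 0.405. Among the other motile cilium genes this ranking held in 15 of 75. Examples, chosen after their values were seen, are Ccdc39, which sets the spacing of axonemal repeats, with 400, 282 and 224 counts in non-stress and 367, 376 and 374 in stress, and Lrriq1, with 291, 128 and 141 and then 321, 254 and 283. Rfx3, one of the RFX factors, had 821, 549 and 528 counts and then 721, 821 and 796. The same 2 libraries stood apart on principal component 1, and the part of that division in these genes was not tested.

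The other proteoglycans of the family of Dcn followed it only in part. In Lum, Ogn and Fmod non-stress 2 and 3 also lay below non-stress 1 in CPM, but they did not both lie below every stress library. Lum, lumican, had 78, 41 and 52 counts in non-stress and 62, 44 and 99 in stress, and its log2 fold change of 0.27 turned to -0.06 without stress 3. Ogn, osteoglycin, had 48, 28 and 25 counts and then 46, 19 and 38, with means of 0.767 ± 0.300 and 0.796 ± 0.337 CPM (SD, n = 3) that nearly coincide. Fmod, fibromodulin, had 49, 34 and 36 counts and then 27, 39 and 35, a log2 fold change of -0.22. Their groups overlapped in each case.

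Aldh1a2, the retinoic acid synthesising enzyme of the meninges, had 52, 43 and 56 counts in non-stress and 53, 53 and 74 in stress. Its log2 fold change was 0.27 (SE 0.22). Igf2, a growth factor made by meninges and choroid plexus, had 40, 37 and 39 counts and then 29, 61 and 44. Its non-stress libraries were alike while its stress libraries lay on both sides of them, and its log2 fold change of 0.23 turned to -0.06 without stress 2. Another protein-coding gene model, Gm49394, shares 62.8% of the exon bases of Igf2 on the same strand, so its counts are uncertain.

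Over the 13 meningeal members the median log2 fold change was 0.13, with 9 above 0. By library the median deviation was 0.306, -0.189 and -0.046 for the non-stress libraries and 0.0067, 0.112 and 0.0708 for the stress libraries, so the stress libraries lay inside the range of the non-stress libraries. Non-stress 1 was the highest library in 5 of the 13. Without Igfbp2, Islr and Mgp, the summed level was 17.3, 11.2 and 11.9 CPM without stress and 15.2, 14.7 and 16.7 CPM with it, again with non-stress 1 highest and non-stress 2 and 3 lowest.

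**Figure D4:**
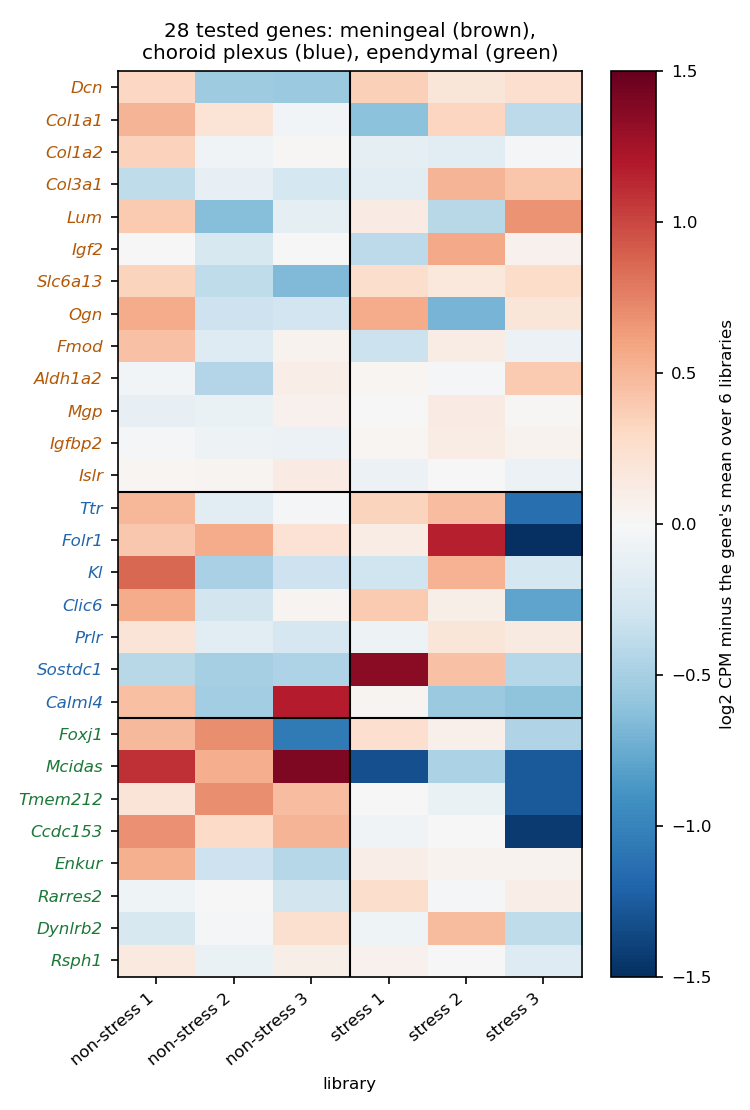
Log2 CPM of each of the 28 tested genes (rows, ordered by tissue) in each library (columns), as the deviation from the gene's mean over 6 libraries (colour scale cut at 1.5 in either direction). Stress 3 is low across several choroid plexus and ependymal genes, non-stress 1 is high across several meningeal and choroid plexus genes, and Mcidas divides by group.

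Of 48 other meningeal and fibroblast genes tested, 0 passed edgeR's threshold, with 1 higher and 5 lower at an unadjusted p under 0.05 (12.5%) and a median log2 fold change of -0.0046. Fn1, fibronectin, which is also made by vessels, had 317, 370 and 342 counts in non-stress and 226, 272 and 263 in stress. It stood at 7.78 ± 0.400 and 5.85 ± 0.415 CPM (SD, n = 3), with no overlap and a log2 fold change of -0.41 (SE 0.10, edgeR adjusted p = 0.344). Spp1, osteopontin, and Foxc1, a transcription factor of meningeal and mural cells, had log2 fold changes of -0.46 and -0.47, also without overlap.

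Markers of other cells show what else moved between the libraries. Mural cell markers, of the cells around vessels, had a median log2 fold change of -0.01. At an unadjusted p under 0.05, 2 of 8 were lower, Rgs5 (-0.15) and Kcnj8 (-0.33), against 6.27% of all genes. Tagln, the next by p, stood at 0.93 with overlapping groups. Endothelial markers summed to 368 to 382 CPM without stress and 357 to 371 CPM with it (median log2 fold change -0.0031). Macrophages of the brain's borders, which live in the meninges and choroid plexus, had a median of 0.22 over 6 tested markers, with Lyve1 at 11, 11 and 11 counts and then 24, 14 and 25. Cd163 had 10, 5 and 0 counts and then 13, 12 and 13, and Cbr2 had 24, 35 and 42 and then 19, 36 and 67. Of the 6 log2 fold changes 4 were above 0 and 2 below, the latter being F13a1 (-0.06) and Ms4a7 (-0.18). Mrc1 stood at 0.17 with overlapping groups. The border macrophage list summed to 2.22 to 3.97 CPM without stress and 3.27 to 3.81 CPM with it. Blood cell markers had a median of 0.14 and summed to 459, 360 and 373 CPM in non-stress and 474, 472 and 368 CPM in stress. Non-stress 2, non-stress 3 and stress 3 were lowest, as in the choroid plexus sum (15.2, 9.74 and 10.9, then 14.7, 15.1 and 6.06 CPM). Astrocyte, oligodendrocyte, microglia and neuron markers had medians of -0.02, -0.08, -0.01 and 0.02, and striatum and septum or ventricular zone markers of -0.0063 and -0.09. Of 8 pituitary genes 2 could be tested, Gh and Pomc, both higher in stress without overlap (background 8.43%). Gh had 9, 6 and 0 counts and then 337, 400 and 30, a log2 fold change of 5.69 (edgeR adjusted p = 0.285). Pomc stood at 0.99 (edgeR adjusted p = 0.344). Lhb, too low to be tested, went the other way, with 5, 4 and 5 counts and then 0, 0 and 0. The pituitary list summed to 1.26 to 3.18 CPM without stress, lowest in non-stress 3, and to 3.79 to 14.2 CPM with it. Stress 3 had the smallest sum of the stress libraries, 3.79 CPM, but lay above every non-stress library. The part of these other cells in the members' values was not tested.

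Leaving out 1 library at a time turned the sign of the log2 fold change in 10 of the 28 members, 3 meningeal (Lum, Igf2 and Ogn), 4 choroid plexus (Ttr, Folr1, Kl and Clic6) and 3 ependymal (Foxj1, Enkur and Dynlrb2). The other 18 kept their sign without any 1 library. Of these, Mcidas, Sostdc1, Calml4, Ccdc153 and Tmem212 had the log2 fold changes of largest size among the 28.

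**Figure D5:**
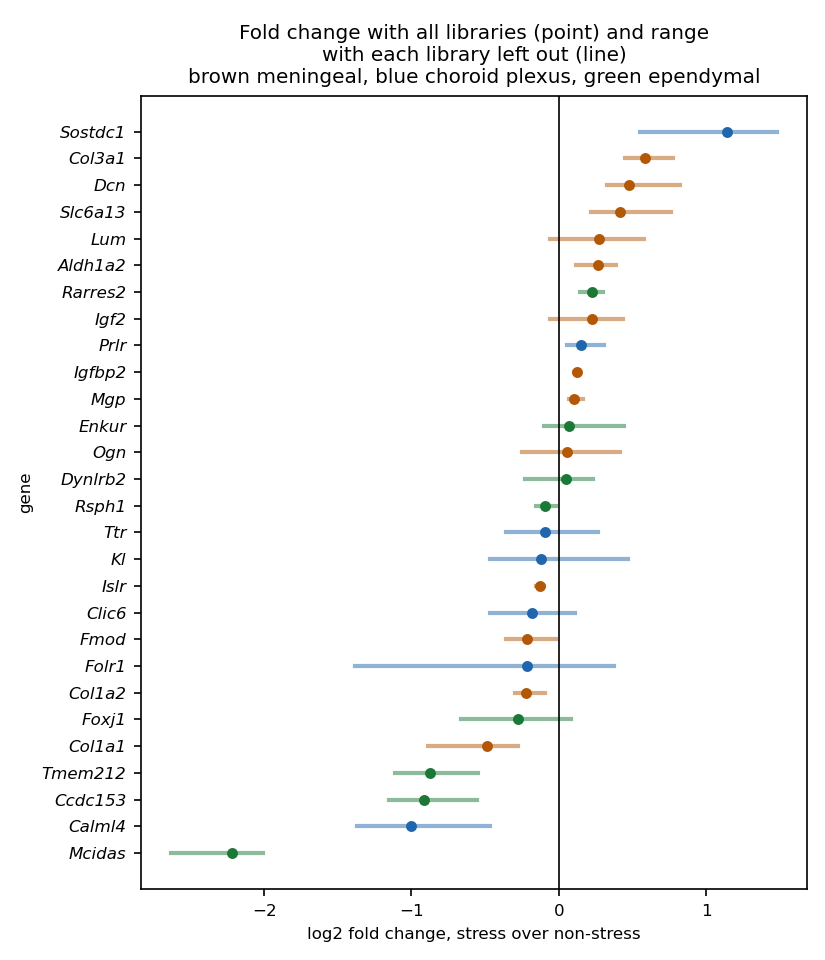
Log2 fold change of stress over non-stress (x) for the 28 tested genes (y, ordered by value). Points use all 6 libraries and lines span the values with each library left out in turn; the lines of 10 genes cross 0, and Mcidas spans -2.63 to -2.01.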

How the data were processed

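The authors deposited 1 table of whole-number counts per gene, which had not been normalised, with 1 column per library. Per the labels' protocols, total RNA went into SMARTer Ultra Low cDNA synthesis and TruSeq libraries. Per the submitters' processing notes, Trimmomatic 0.38, HISAT2 and StringTie were used with build GRCm38. How genes were counted, by which annotation and strand, is not given in the sources used here.

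The counts were used as deposited. edgeR 4.0.16 in R 4.3.3 tested the 19227 genes that filterByExpr kept, with TMM factors and group as the single term (two-sided quasi-likelihood test, Benjamini-Hochberg over all genes, threshold 0.05). Standard errors are the log2 fold change divided by the square root of F. Log2 CPM had a prior count of 2, and a count of 0 a floor of 3 counts. Replicate number was no main term: same-numbered libraries did not deviate together (r from -0.0297 to 0.0210). Gene positions and promoters come from RefSeq (GRCm38.p6), which held all 30 members, and exons from GENCODE M21.

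Alternatives were RLE factors, other filters, each library left out, a replicate block, DESeq2 1.42.0 and limma-voom (limma 3.58.1), with DESeq2 without its filter on mean counts added after seeing the data. All 30 members are named, with the 3 genes of smallest p in the other meningeal, choroid plexus, cilium, multiciliation, mural and border macrophage lists. Of the pituitary list the 2 tested genes and Lhb are named, the latter after its values were seen. The remaining marker lists are given by medians or sums, without the genes that the same rule would name. The members and lists were chosen with earlier results of these data known. Scripts were tested on simulated data.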

Additional observations from a re-analysis of the deposited data

How the results depend on the processing

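No member passed edgeR's threshold with RLE factors, without a filter, with at least 50 counts in 3 libraries, with the replicate block, or by DESeq2 and limma-voom as planned. Leaving out 1 library gave 0 to 2 members called, and 1 to 756 of all genes, against 1 with all libraries. The 2 members, Dcn and Mcidas, and the 756 genes (of 19616 tested) both belong to the fit without non-stress 1. Over all genes the count was 2 with the replicate block (pairing by number), 2 with limma-voom, 127 with DESeq2 and 98 with DESeq2 without its filter on mean counts, which called 1 member, Mcidas. With each library left out, the median log2 fold change lay between 0.0834 and 0.266 for the meningeal, -0.361 and 0.128 for the choroid plexus and -0.384 and -0.0514 for the ependymal members. The log2 fold changes that turned sign ranged from -0.0567 to 0.582 (Lum), -0.0615 to 0.435 (Igf2), -0.252 to 0.417 (Ogn), -0.361 to 0.267 (Ttr), -1.38 to 0.375 (Folr1), -0.468 to 0.471 (Kl), -0.466 to 0.108 (Clic6), -0.665 to 0.0838 (Foxj1), -0.102 to 0.441 (Enkur) and -0.229 to 0.236 (Dynlrb2). The cause was not tested. The replicate block changed no call among the members. Many members have under 100 counts a library. In 11 the spread within groups was over 2 times that of counting, a share not computed for all genes. Which of these limited detection was not tested.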
